A study of Mus musculus with 20 samples.

Results

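The genes described here mark T cells and natural killer (NK) cells, and their transcripts were measured in whole knee joints of mice with surgically induced osteoarthritis. The list held 38 gene symbols, and each row of the expression table whose symbol was on the list was taken, which gave 35 of the 14793 genes in the table. Trac, Trbc1 and Trbc2, the constant regions of the T cell receptor α and β chains, were not analysed here. Bulk polyA RNA sequencing had been performed on 20 joints, with 5 mice in each of 4 groups. All mice were 12-week-old male C57BL/6Nci animals in which the medial meniscus of the right knee had been destabilized (DMM), and no joint without surgery was part of the comparison. The CTRL joints received needle insertion alone. The MSC joints received non-activated mesenchymal stromal cells grown from adipose tissue. For the TLR joints these cells had first been activated with pIC, a double-stranded RNA mimic that engages TLR3, and for the STING joints with the cyclic dinucleotide 2′3′-cGAMP, in each case at 10 µg/mL for 2 h. Each injection carried 250000 cells and was given in weeks 3 and 5 after surgery. The injected cells came from adipose tissue pooled across donor mice of the same strain, sex and age, so the 3 cell groups share 1 cell source. The joint was processed as a whole, with cartilage, synovium, capsule and subchondral bone together, and the study places the collection both 8 weeks after surgery and 24 h after an injection.

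T cells recognize peptide antigen through a receptor whose α and β chains have almost no cytoplasmic part, so the signal is carried inward by the CD3 γ, δ and ε chains and the ζ chain. The kinase Lck, which is held at the coreceptors CD4 and CD8, phosphorylates these chains, Zap70 docks on them, and the adaptor Lat then spreads the signal. NK cells carry no such receptor. They read a balance of activating and inhibitory receptors, and like CD8 T cells they kill through perforin and granzymes released from granules. In a mouse knee joint these cells are a small minority that can sit in the synovium and in the marrow of the subchondral bone. In whole tissue, fewer cells of a type and less RNA per cell cannot be told apart.

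The 3 CD3 genes lie side by side on chromosome 9, and their promoter windows are shown because their levels parted in a way described below. In the deposited coordinates (GRCm39) Cd3g spans chr9:44880870-44891730 on the minus strand, Cd3d spans chr9:44893084-44898638 on the plus strand, and Cd3e spans chr9:44910038-44920926 on the minus strand. The windows below are RefSeq sequences of build GRCm38.p6, each 300 bases long, from 250 bases before the start site to 50 bases after it, and read 5′ to 3′ along the gene. They are chr9:44980382-44980681 (minus strand) for Cd3g, chr9:44981536-44981835 (plus strand) for Cd3d and chr9:45009562-45009861 (minus strand) for Cd3e. The start sites of the divergent Cd3g and Cd3d are 1355 bases apart, and those of Cd3d and Cd3e are 27825 bases apart. Capitals mark matches, on either strand, to the core motifs of 3 families of transcription factors active in lymphocytes: GGAA for the ETS family, TGTGGT for the RUNX family and AGATAA for the GATA family. No matches of different motifs overlapped in these windows.
Cd3g: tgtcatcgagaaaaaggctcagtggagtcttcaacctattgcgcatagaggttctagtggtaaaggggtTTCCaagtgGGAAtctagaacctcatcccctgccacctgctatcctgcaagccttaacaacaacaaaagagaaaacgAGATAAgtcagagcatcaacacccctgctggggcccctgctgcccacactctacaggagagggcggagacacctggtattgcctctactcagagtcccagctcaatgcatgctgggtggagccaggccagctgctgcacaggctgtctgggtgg
Cd3d: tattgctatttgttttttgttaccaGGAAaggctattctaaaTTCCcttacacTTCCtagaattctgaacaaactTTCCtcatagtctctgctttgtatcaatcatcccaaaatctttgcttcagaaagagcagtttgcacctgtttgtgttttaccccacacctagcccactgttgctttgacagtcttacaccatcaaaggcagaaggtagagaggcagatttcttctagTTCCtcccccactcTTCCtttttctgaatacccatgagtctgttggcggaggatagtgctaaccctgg
Cd3e: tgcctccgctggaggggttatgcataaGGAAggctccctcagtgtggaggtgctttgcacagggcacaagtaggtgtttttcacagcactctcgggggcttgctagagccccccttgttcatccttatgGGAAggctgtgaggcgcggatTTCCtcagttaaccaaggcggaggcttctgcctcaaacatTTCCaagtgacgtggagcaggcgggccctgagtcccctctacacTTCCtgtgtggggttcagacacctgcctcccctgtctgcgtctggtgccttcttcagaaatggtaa

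The Cd3d window held 6 matches to GGAA, the Cd3e window 5 and the Cd3g window 2. AGATAA was found once, in the Cd3g window, and TGTGGT in none of the 3 windows. Over 32544 windows of the same length, 96.0% held GGAA, 16.7% held TGTGGT and 11.2% held AGATAA, so the ETS core does not set these genes apart. A match to these letters is a description and not a measured binding site.

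The values are normalized counts, which are the reads counted on a gene divided by a size factor of the library. The reads recovered from them ranged from 27955496 to 52529963 per joint. The 35 genes together took from 3445 to 13249 of these reads. A pair of libraries stood apart. Joint 5 of the MSC group was listed at 0 for 296 genes, of which 239 were above 0 in all other joints, and joint 4 of the CTRL group had the lowest level among the 20 joints for 14 of the 35 genes. The results that rest on these 2 joints are given with and without them. Joint 5 of the STING group was also listed at 0 for 97 genes, of which 47 were above 0 in all other joints. It was highest for 7 of the 35 genes and lowest for 2. That joint was left out only in the leave-one-out fits and, for relations of Cd3e, together with joint 5 of the MSC group. Pan-leukocyte genes such as Ptprc (CD45) were read in every joint (Ptprc from 6874 to 15206 normalized counts), and so was the muscle actin Acta1 (from 187388 to 719637), so the libraries held RNA of leukocytes and muscle.

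**Figure D1:**
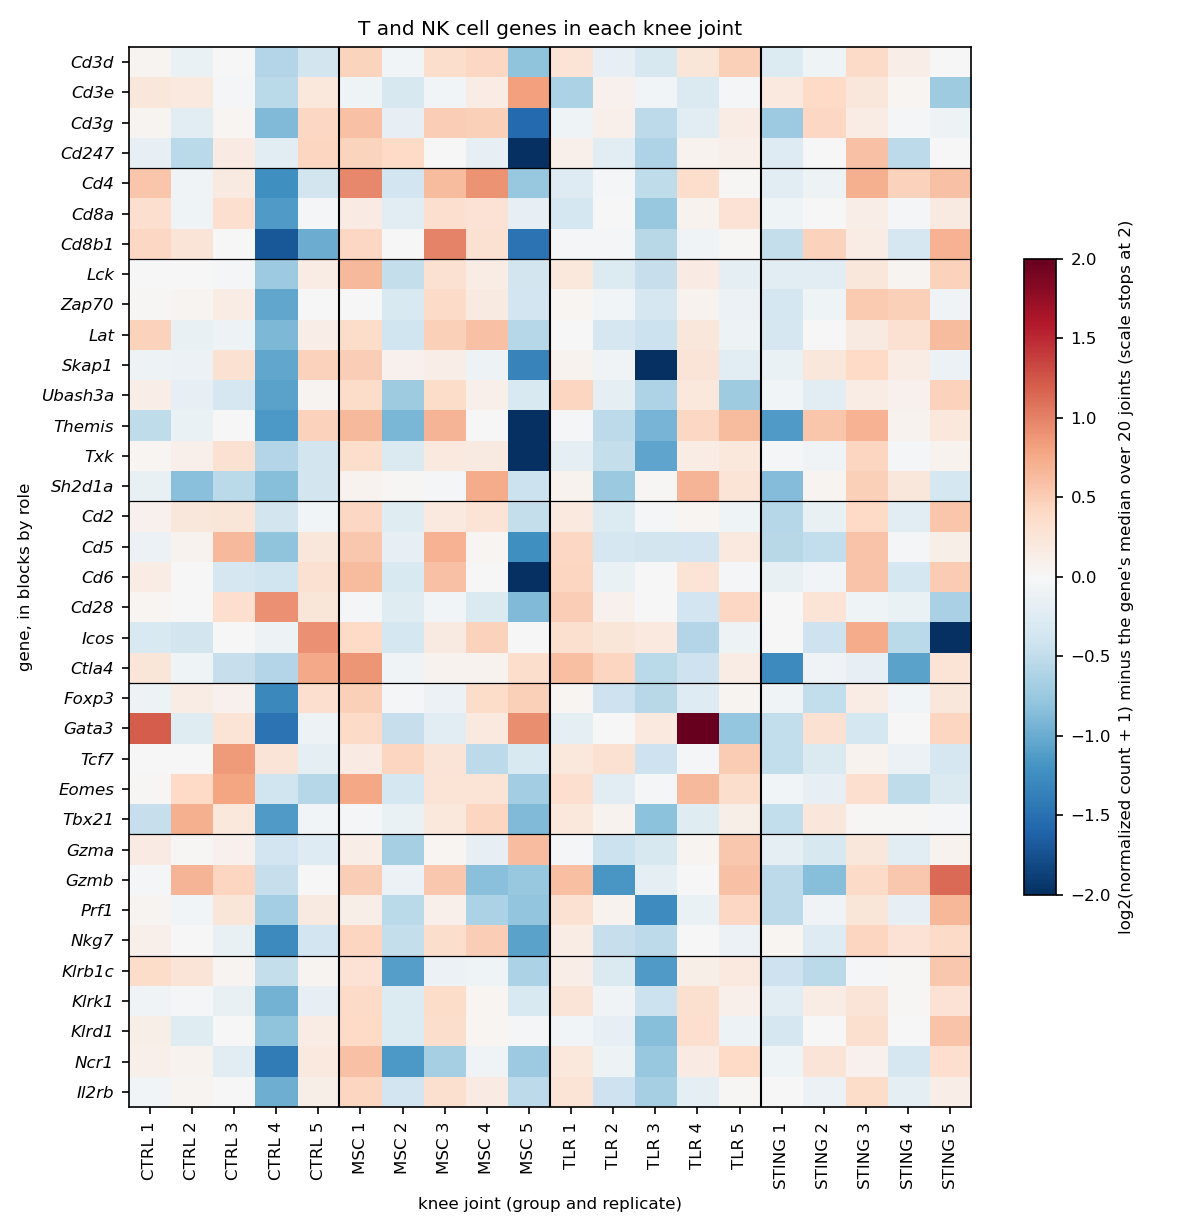
Heat map of the 35 T and NK cell genes (rows, in blocks by role) in the 20 knee joints (columns, by group and replicate). Colour gives log2(normalized count + 1) minus the median of the gene over the 20 joints. Joint 4 of the CTRL group was lowest for 14 genes and joint 5 of the MSC group for 9, while joint 1 of the MSC group was highest for 10.

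Every one of the 35 genes was detected, but at levels that differed widely. To compare genes with each other, the median normalized count over the 20 joints was divided by the summed exon length in kilobases. On this scale Nkg7, a membrane protein of cytotoxic granules, was highest at 1132 per kb, followed by Lat at 229.6, Cd4 at 166 and Cd2 at 142. The lowest were Txk, a Tec family kinase of T cells, at 4.44, Sh2d1a, the adaptor SAP, at 3.80, and Themis, which tunes receptor signalling in thymocytes, at 1.83. The CD3 chains lay between, with 49.8 for Cd3d, 27.9 for Cd3g and 19.1 for Cd3e. As background, CD4 is also carried by some macrophages and dendritic cells and Lat is also used by mast cells and platelets, so these transcripts need not all come from T cells, and their cell of origin was not tested.

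Between the 4 groups, none of the 35 genes passed the moderated F-test of limma at an unadjusted p of 0.05, against 6.42% of all genes tested. Cd28 came closest (adjusted p = 0.779 in limma), and the adjusted p of the panel genes described next ran from 0.875 to 0.992. edgeR on the recovered reads also gave 0 of the 35, against 7.35% of all genes, and DESeq2 gave 1, Cd28, against 9.75%. In the 6 pairwise comparisons, 210 tests in all, Cd28 was the only gene past the threshold, in MSC against CTRL. After adjustment over all genes in the limma fit, 0 of the 35 passed an adjusted p of 0.05 in any comparison, and so did 0.00676% of the whole table, which is 1 gene. At an adjusted p of 0.05 the count was 0 of the 35 in edgeR and in DESeq2 as well, although these tools called more of the whole table. In MSC against CTRL, however, DESeq2 gave no adjusted p for some of the 35, Sh2d1a and Foxp3 among them. Of all genes, edgeR called 0.101% and DESeq2 0.732% in MSC against CTRL, 0 genes and 0.576% in STING against CTRL, and 0.0135% and 0.671% across the 4 groups.

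**Figure D2:**
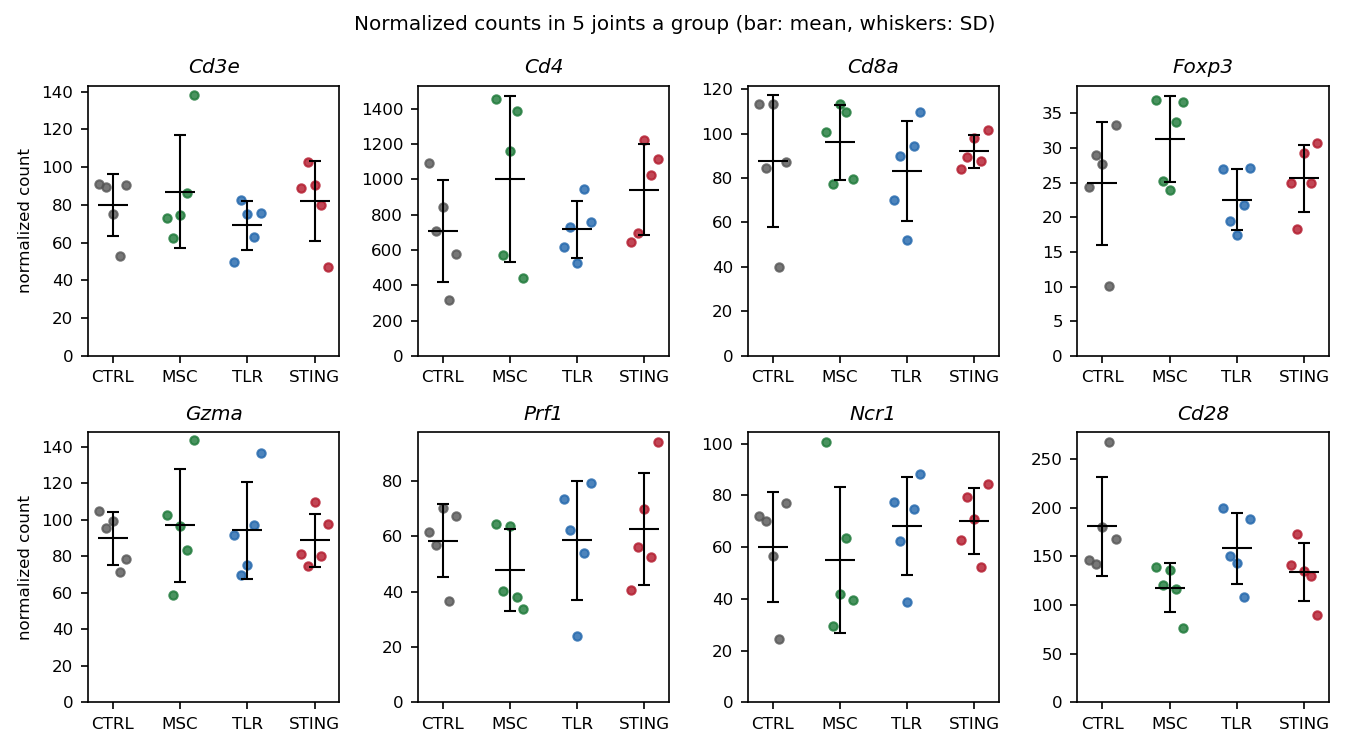
Normalized counts of 8 genes in the 5 joints of each group (points), with the group mean (bar) and SD (whiskers), each axis from 0. The groups overlap for 7 of them, and for Cd28 all 5 MSC joints lie below all 5 CTRL joints.

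The CD3 chains were measured first. Cd3e, the ε chain, was at 91.0, 89.4, 75.4, 53.0 and 90.5 normalized counts in CTRL joints 1 to 5 and at 73.0, 62.3, 74.6, 86.5 and 138 in MSC joints 1 to 5. Cd3e was at 49.7, 82.5, 75.1, 63.2 and 75.7 in TLR joints and at 89.2, 103, 90.7, 80.0 and 47.0 in STING joints. The group means of Cd3e were 79.9 ± 16.4 in CTRL, 87.0 ± 30.0 in MSC, 69.2 ± 12.9 in TLR and 81.9 ± 21.1 in STING joints (SD, n = 5 each). All groups overlapped, and the highest and the lowest joint of the 20 were an MSC and a STING joint (adjusted p = 0.915, limma F-test).

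The neighbouring genes behaved differently in joint 5 of the MSC group. Cd3d, the δ chain, was at 176, 124, 164, 171 and 73.3 in MSC joints 1 to 5, and Cd3g, the γ chain, was at 138, 81.7, 129, 127 and 30.5. Cd247, the ζ chain, which lies on chromosome 1, was at 79.8, 76.6, 58.7, 51.9 and 7.13 in the same joints. Cd247 overlaps Pou2f1 on the opposite strand, so its reads are uncertain where strand was not used. Joint 5 was thus the lowest of the 5 for Cd3d, Cd3g and Cd247 and the highest for Cd3e. These 3 genes and this joint were chosen after their values were seen. Elsewhere, the range over the other 19 joints was 85.9 to 179.7 for Cd3d, 49.3 to 138 for Cd3g and 37.5 to 87.6 for Cd247.

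**Figure D3:**
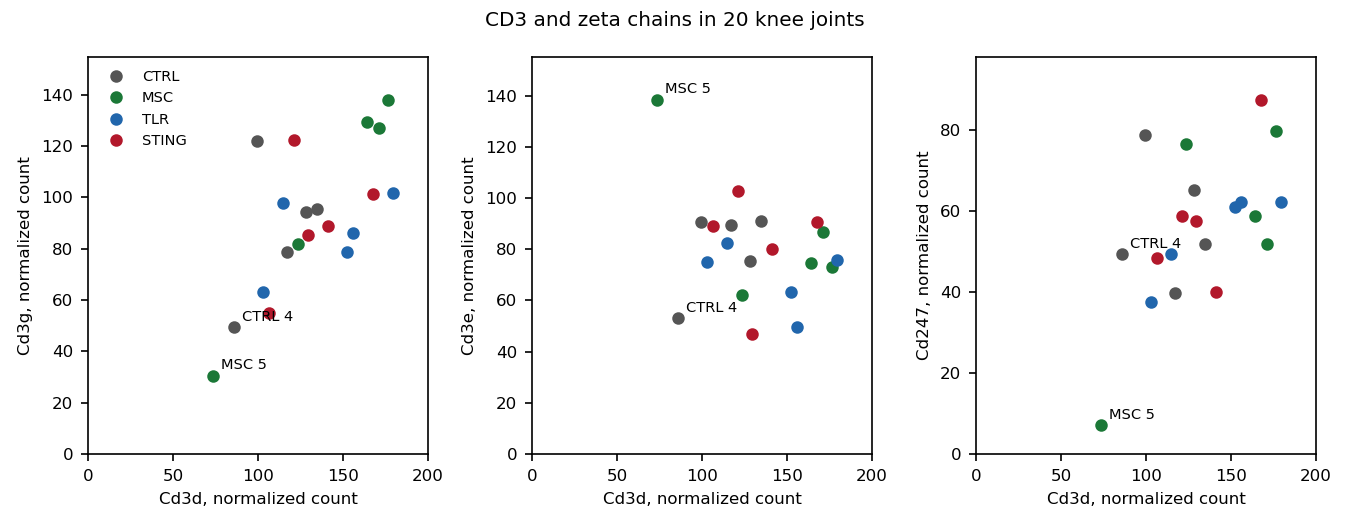
Cd3g, Cd3e and Cd247 (vertical axes) against Cd3d (horizontal axis), all in normalized counts, for the 20 knee joints coloured by group. Joint 5 of the MSC group has the lowest Cd3d (73.3), Cd3g (30.5) and Cd247 (7.13) and the highest Cd3e (138).

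Across the joints, Cd3d and Cd3g moved together over the 20 joints, while no relation of Cd3e with either passed. After subtracting group means from the log2 values, Cd3d and Cd3g correlated with r = 0.79 (permutation p = 0.00161, adjusted over 3 relations 0.00483) and rho = 0.68 (permutation p = 0.00447, adjusted 0.0134) over 20 joints. Leaving out joint 5 of the MSC group and joint 4 of the CTRL group, the 2 farthest from the median of Cd3d, gave r = 0.48. When only joint 5 of the MSC group was left out, r was 0.58 (permutation p = 0.0135, adjusted 0.0406) and rho 0.48 (permutation p = 0.0597, adjusted 0.0895), so the relation rests in part on that joint. Cd3e with Cd3d gave r = -0.29 (permutation p = 0.293, adjusted 0.439) and rho = -0.21 (permutation p = 0.411, adjusted 0.617), and r = 0.14 without joint 5 of the MSC group and joint 5 of the STING group. Cd3e with Cd3g gave r = -0.15 (permutation p = 0.584, adjusted 0.584) and rho = 0.10 (permutation p = 0.692, adjusted 0.692), and r = 0.57 without those 2 joints. The sign of both r values of Cd3e rests on joint 5 of the MSC group, and without that joint alone they were 0.12 (permutation p = 0.641, adjusted 0.641) and 0.45 (permutation p = 0.0920, adjusted 0.138). The rho of Cd3e with Cd3g was then 0.55 (permutation p = 0.0304, adjusted 0.0895), no lower than that of Cd3d with Cd3g. The contrast seen with Cd3g therefore rests on that joint. The rho of Cd3e with Cd3d was then 0.06 (permutation p = 0.818, adjusted 0.818), still below the 0.48 of Cd3d with Cd3g.

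The coreceptors define the helper and the cytotoxic lineages. Cd4 was at 1095, 708, 842, 318 and 575 normalized counts in CTRL joints 1 to 5 and at 1454, 571, 1161, 1386 and 441 in MSC joints. Cd4 was at 619, 729, 526, 948 and 761 in TLR joints and at 643, 695, 1222, 1027 and 1113 in STING joints. The means of Cd4 were 707 ± 290.4 in CTRL, 1003 ± 468 in MSC, 717 ± 159 in TLR and 939.9 ± 258 in STING joints (SD, n = 5 each). The MSC joints held both some of the highest and some of the lowest Cd4 values, and all groups overlapped (adjusted p = 0.878, limma F-test).

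Cd8a, the α chain of CD8, was at 113, 84.6, 113, 40.2 and 87.1 in CTRL joints and at 101, 77.5, 113, 109.6 and 79.4 in MSC joints. Cd8a was at 70.0, 89.8, 52.3, 94.3 and 109.6 in TLR joints and at 83.9, 89.3, 98.0, 87.5 and 102 in STING joints. Its means were 87.6 ± 29.9, 96.1 ± 16.8, 83.2 ± 22.3 and 92.1 ± 7.48 in CTRL, MSC, TLR and STING joints (SD, n = 5 each). The STING joints were the closest together and lay inside the range of the CTRL joints (adjusted p = 0.929, limma F-test). Cd8b1, the β chain, ranged from 16.4 in joint 4 of the CTRL group to 111 in joint 3 of the MSC group.

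Proximal receptor signalling was represented by 8 genes. Lck ranged from 184 to 474 normalized counts over the 20 joints, Zap70 from 53.9 to 162 and Lat from 347 to 1009, and each was lowest in joint 4 of the CTRL group. Ubash3a, a phosphatase family protein that dampens receptor signalling, ranged from 229 to 665, and Skap1, an adaptor that links the receptor to integrins, from 14.7 to 107. Themis was listed at 0 in joint 5 of the MSC group, where no read was recovered, and ranged from 9.13 to 35.5 in the other 19 joints. Txk was at 5.09 in that joint and from 22.8 to 65.7 in the others. For none of the 8 did the groups separate, and the adjusted p of the limma F-test started at 0.840, for Sh2d1a, which ranged from 11.8 to 37.9.

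Cd28, the costimulatory receptor that binds CD80 and CD86, was the gene past the threshold. It was at 146, 143, 179.7, 268 and 167 normalized counts in CTRL joints 1 to 5 and at 139, 120.4, 136, 116 and 76.3 in MSC joints. Cd28 was at 199.8, 150.4, 143, 109 and 189 in TLR joints and at 142, 172, 135, 129.9 and 90.2 in STING joints. All 5 MSC joints lay below all 5 CTRL joints, although the gap between the groups, from 139 to 143, was small beside the spread within them. The means were 181 ± 50.9 in CTRL, 118 ± 25.2 in MSC, 158 ± 36.7 in TLR and 134 ± 29.5 in STING joints (SD, n = 5 each). Cd28 fell by 0.60 on the log2 scale in MSC against CTRL joints (SE 0.22, 95% interval -1.06 to -0.15, p = 0.0120, adjusted p = 0.392 in limma), which is a fold of 0.658, and the exact two-sided permutation p was 0.00794, the smallest that 5 joints against 5 can give. Cd28 was also the only one of the 35 genes whose MSC and CTRL joints did not overlap in this direction, against 0.372% of all genes.

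The difference in Cd28 leaned on the joints that stood apart. Joint 4 of the CTRL group held the highest Cd28 of the 20 joints while it was lowest for 14 other genes of the list, and joint 5 of the MSC group held the lowest. Leaving out joint 4 of the CTRL group gave a log2 difference of -0.45 (p = 0.0461 in limma, exact permutation p = 0.0159), and leaving out joint 5 of the MSC group gave -0.46 (p = 0.0438 in limma, exact permutation p = 0.0159). TLR joints were at 0.881-fold of CTRL (log2 difference -0.18, p = 0.410 in limma, exact permutation p = 0.452). STING joints were at 0.747-fold (-0.42, p = 0.0679 in limma, exact permutation p = 0.0635). TLR against MSC gave 0.42 (p = 0.0679 in limma, exact permutation p = 0.103), so a difference in Cd28 between TLR and MSC joints is not shown. Without joint 4 of the CTRL group the same 0.42 passed in the limma fit. So did Foxp3, at -0.45 in TLR against MSC joints (p = 0.0464 in limma, exact permutation p = 0.0476). That joint is in neither of these groups, so the differences and exact p values did not change. Only the estimate of spread shared by all groups in the fit changed. In that fit 1 of the 35 genes was higher and 1 lower, against 1.89% and 2.1% of all genes.

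Icos and Ctla4, which lie next to Cd28 on chromosome 1, encode a costimulatory and an inhibitory receptor of the same family. Their medians per kb of exon were 9.17 and 6.07, against 23.2 for Cd28, and they did not pass in any comparison. Icos ranged from 3.84 in joint 5 of the STING group to 59.9 in joint 5 of the CTRL group, and Ctla4 from 5.24 to 26.8. Cd2, an adhesion receptor, ranged from 186 to 404. Cd5 and Cd6, paired scavenger-type receptors that restrain T cell signalling, ranged from 28.5 to 110.4 and from 16.3 to 107, and both were lowest in joint 5 of the MSC group.

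The transcription factors include Foxp3, which defines regulatory T cells. Foxp3 was at 24.3, 29.0, 27.6, 10.0 and 33.3 normalized counts in CTRL joints and at 36.9, 25.3, 23.9, 33.8 and 36.6 in MSC joints. Foxp3 was at 27.0, 19.4, 17.4, 21.8 and 27.1 in TLR joints and at 24.9, 18.3, 29.2, 25.0 and 30.7 in STING joints. Its means were 24.9 ± 8.89, 31.3 ± 6.27, 22.5 ± 4.39 and 25.6 ± 4.81 in CTRL, MSC, TLR and STING joints (SD, n = 5 each). The lowest value was that of joint 4 of the CTRL group, and the groups overlapped (adjusted p = 0.875, limma F-test). These levels rest on 11 to 55 reads per library, and Foxp3 overlaps other genes on the opposite strand, so its reads are uncertain where strand was not used. Tcf7, a factor of naive and memory T cells, ranged from 292 to 758, and Eomes and Tbx21, which drive cytotoxic and type 1 programmes, from 31.6 to 90.5 and from 24.7 to 91.8. Gata3, of type 2 helper and innate lymphoid cells, ranged from 12.8 to 165, with its highest value in joint 4 of the TLR group, where the mean log2 level of 5 keratinocyte genes (Krt5, Krt14, Krt10, Krt1 and Lor) was also the highest, at 11.97 against a median of 3.40 in CTRL joints; 4 of these 5 were at 0 in some joint. Gata3 is also active in skin, and the part of skin in this value was not tested.

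Among the 4 granule genes none passed in any comparison. Gzma, the tryptase granzyme A, was at 105, 95.4, 99.3, 71.2 and 78.2 normalized counts in CTRL joints and at 103, 58.9, 96.5, 83.2 and 144 in MSC joints. Gzma was at 91.9, 69.5, 75.1, 97.4 and 137 in TLR joints and at 81.3, 74.6, 109, 80.0 and 97.9 in STING joints. The means of Gzma, 89.8 ± 14.4, 96.9 ± 31.0, 94.1 ± 26.5 and 88.6 ± 14.5 in CTRL, MSC, TLR and STING joints (SD, n = 5 each), lay closer together than the joints of any group (adjusted p = 0.992, limma F-test). Its highest value was again that of joint 5 of the MSC group.

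Prf1, the pore-forming perforin, was at 61.4, 56.8, 70.4, 36.5 and 67.4 in CTRL joints and at 64.3, 40.4, 63.7, 37.9 and 33.6 in MSC joints. Prf1 was at 73.3, 62.3, 24.1, 53.9 and 79.1 in TLR joints and at 40.6, 56.3, 69.9, 52.5 and 94.0 in STING joints. Its means were 58.5 ± 13.4, 48.0 ± 14.8, 58.5 ± 21.6 and 62.7 ± 20.4 in CTRL, MSC, TLR and STING joints (SD, n = 5 each), with overlap between all groups (adjusted p = 0.914, limma F-test). Gzmb, which encodes the caspase-like protease granzyme B, ranged from 9.70 to 51.8, and Nkg7 from 430.2 to 1471.

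The 5 genes of NK receptors and the IL-2 receptor did not pass either. Ncr1, which encodes the activating receptor NKp46, was at 72.0, 70.1, 56.6, 24.7 and 76.9 normalized counts in CTRL joints and at 101, 29.5, 41.8, 63.5 and 39.7 in MSC joints. Ncr1 was at 77.5, 62.3, 38.9, 74.6 and 88.2 in TLR joints and at 62.9, 79.5, 70.9, 52.5 and 84.4 in STING joints. Its means were 60.0 ± 21.2, 55.0 ± 28.3, 68.3 ± 18.8 and 70.1 ± 12.8 in CTRL, MSC, TLR and STING joints (SD, n = 5 each). The highest joint was in the MSC group and the lowest in the CTRL group (adjusted p = 0.895, limma F-test). Klrb1c (NK1.1), Klrd1 (CD94) and Klrk1 (NKG2D), all in the NK gene complex of chromosome 6, ranged from 40.2 to 130.5, from 83.1 to 223 and from 103 to 262, and Klrb1c overlaps Gm44511 on the same strand, so its reads are uncertain. Il2rb, the IL-2 and IL-15 receptor β chain, ranged from 284 to 753.

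Against the CTRL group, the list leaned to higher values in MSC and STING joints, but this rested on 1 control joint. In MSC against CTRL, 22 of the 35 genes had a higher and 13 a lower fitted mean, and the median log2 difference was 0.09 (all genes, -0.04). STING against CTRL gave 26 higher and 9 lower, with a median of 0.15 (all genes, 0.01), and TLR against CTRL 17 higher and 18 lower, with a median of 0.00 (all genes, -0.01). The 3 comparisons share the same 5 CTRL joints. Without joint 4 of the CTRL group the medians became -0.08, -0.03 and -0.14 in MSC, STING and TLR joints, and 13, 16 and 5 of the 35 genes were higher.

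At an unadjusted p of 0.05 in limma, 0 of the 35 genes were higher and 1 was lower in MSC against CTRL, against 5.64% and 2.91% of all genes. In TLR against CTRL 0 of the 35 passed in either direction, against 2.68% higher and 0.906% lower of all genes, and in STING against CTRL 0 passed, against 6.54% and 5.69%. edgeR and DESeq2 on the recovered reads each added Sh2d1a, higher in MSC and in TLR against CTRL, and Tcf7, lower in STING against CTRL. Over all genes in either direction, edgeR called 8.85% in MSC, 3.81% in TLR and 13.3% in STING against CTRL, and DESeq2 9.71%, 4.26% and 15.2%. In the limma fit Sh2d1a had a log2 difference of 0.62 ± 0.31 (SE) in MSC against CTRL (p = 0.0558, exact permutation p = 0.0238) and of 0.61 ± 0.31 in TLR against CTRL (p = 0.0606, exact permutation p = 0.0556). Tcf7 had -0.41 ± 0.21 in STING against CTRL (p = 0.0664, exact permutation p = 0.0556). Sh2d1a overlaps Tenm1 on the opposite strand, so its reads are uncertain. Sh2d1a and Tcf7 were named after their values were seen.

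The result in MSC joints depended on joint 5. When it was left out, 27 of the 35 genes had a higher mean in MSC than in CTRL joints, with a median log2 difference of 0.26. Of the list, 5 genes, Cd3d, Cd4, Cd8b1, Sh2d1a and Nkg7, rose at an unadjusted p of 0.05 and Cd28 fell, against 8.11% and 4.91% of all genes. This fit still held joint 4 of the CTRL group, the lowest of the 20 joints for Cd4, Cd8b1 and Nkg7. Among the CTRL joints it was also the lowest for Cd3d and Sh2d1a. These joints of the MSC and CTRL groups were not left out together in a test between groups. Cd3d was higher by 0.49 on the log2 scale (p = 0.0166 in limma, exact permutation p = 0.0476), and Sh2d1a by 0.75 (p = 0.0274, exact permutation p = 0.0159, the smallest that 4 joints against 5 can give). For the other 3 the exact permutation test did not pass, with log2 differences of 0.72 for Cd4 (exact p = 0.143), 0.83 for Cd8b1 (exact p = 0.111) and 0.54 for Nkg7 (exact p = 0.143). In that joint 21 of the 35 genes were below the other 4 MSC joints, 3 (Cd3e, Gzma and Gata3) were above them and 11 were within their range. Cd247 had 7 reads there, Txk 5 and Themis 0, at a depth of 36507608 reads. The muscle genes had a mean log2 level of 17.18 in this joint, the highest of the MSC group. The pan-leukocyte genes were at 13.18, the lowest of that group but close to joint 2 at 13.19. Ptprc was lower in joint 2 (9096 normalized counts) than in joint 5 (9797). The part of either list in these values was not tested.

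**Figure D4:**
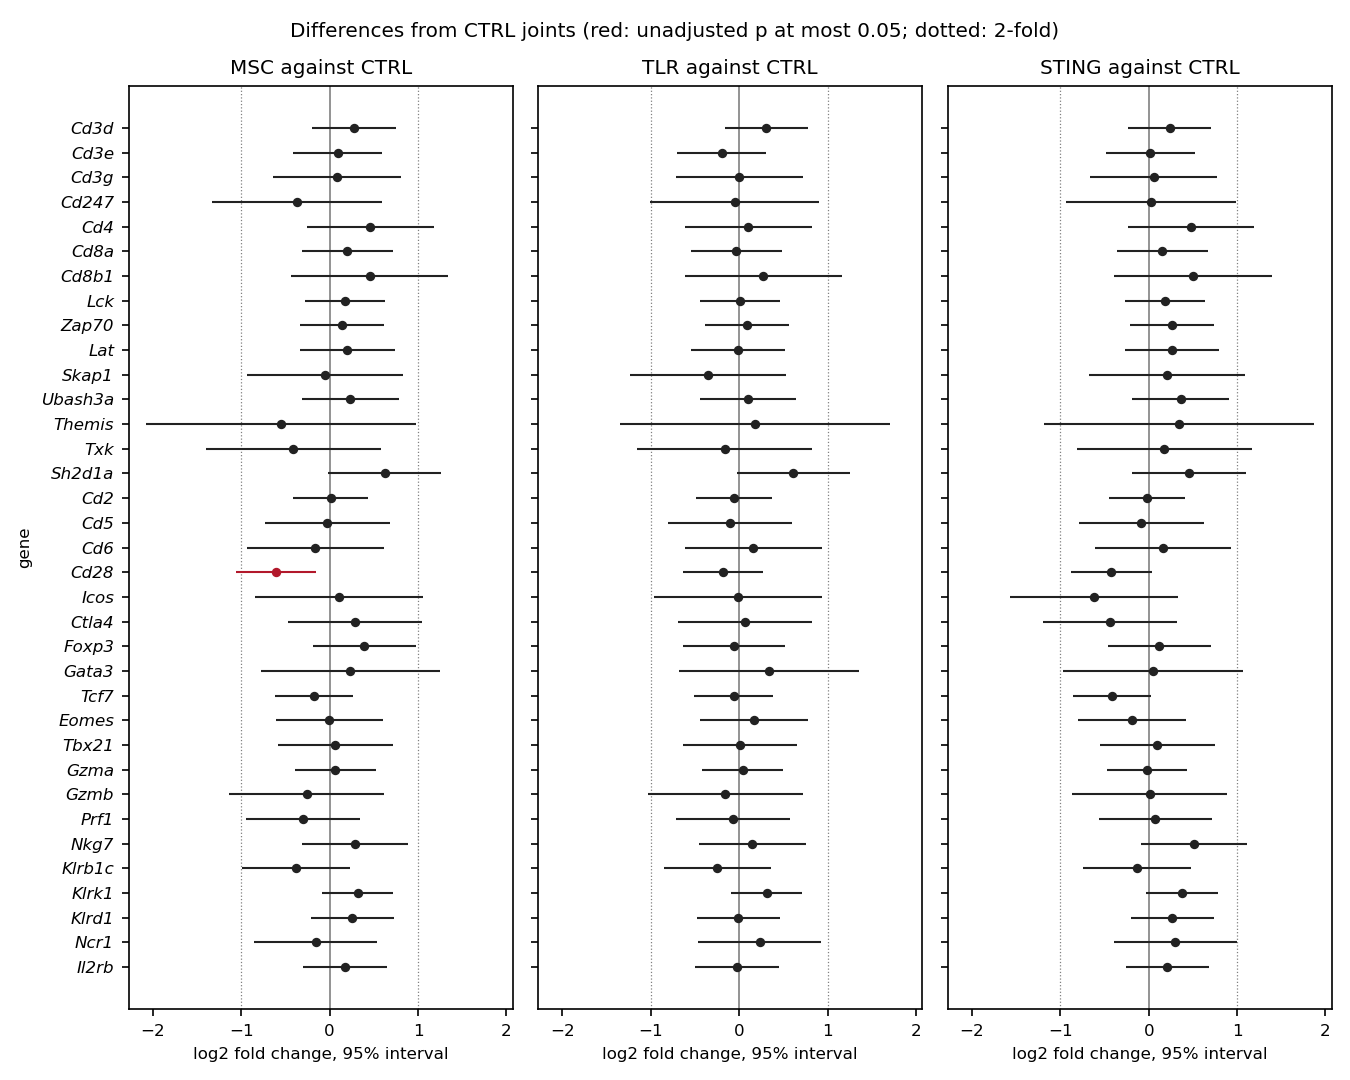
Log2 differences from CTRL joints (points) with 95% intervals (lines) for the 35 genes in MSC, TLR and STING joints, from the limma fit on log2(normalized count + 1). Cd28 in MSC joints (red) is the gene past an unadjusted p of 0.05, and the dotted lines mark a 2-fold difference in either direction.

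The intervals bound the differences. The standard error of a log2 difference ranged from 0.19 to 0.73 over the 35 genes, with a median of 0.29. In MSC against CTRL the 95% interval lay within 2-fold either way for 24 of the 35 genes, against 80.9% of all genes. The counts were 27 of 35 in TLR against CTRL (84.9% of all genes) and 25 of 35 in STING against CTRL (80.4%). Themis, at a median of 21.4 normalized counts, had the widest intervals, and those of Txk and Gata3 also reached past 2-fold in all 6 comparisons.

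Between the cell groups no gene of the list passed in limma either, while the exact permutation p of Foxp3 in TLR against MSC was 0.0476. In TLR against MSC 0 of the 35 were higher and 0 lower, against 1.89% and 1.99% of all genes, and the median log2 difference was -0.06. In STING against MSC the counts were 0 and 0, against 2.77% and 2.17%, with a median of 0.03. In STING against TLR they were 0 and 0, against 0.784% and 1.78%, with a median of 0.11. The 95% interval lay within 2-fold for 24 of 35 genes in TLR against MSC (83.3% of all genes), for 24 in STING against MSC (83.1%) and for 25 in STING against TLR (82.0%). With joint 5 of the MSC group left out, the medians against MSC joints were -0.19 for TLR and -0.09 for STING. In edgeR the count was also 0 in these 3 comparisons, against 3.99%, 4.85% and 4.09% of all genes in either direction, and in DESeq2 it was 0 against 4.7%, 6.28% and 4.58%.

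Other genes of the same cells were counted from lists of 46 further T cell genes, of which 40 were in the table, and of 29 further NK and cytotoxic genes, of which 26 were. At the same unadjusted threshold in MSC against CTRL, 4 of the 40 T cell genes rose (Zbtb7b and Ltb among them) and none fell, and 1 of the 26 NK genes rose (Il18rap), against 5.64% of all genes higher and 2.91% lower. Zbtb7b, the ThPOK factor of the CD4 lineage, was at a median of 3900.2 normalized counts in MSC and 3259.5 in CTRL joints, a log2 difference of 0.25 (SE 0.08, adjusted p = 0.354 in limma). In STING against CTRL 5 of the 40 rose (Stat4, Zbtb7b and Lcp2 among them), none fell, and 2 of the 26 rose (Cd244a and Cst7), against 6.54% of all genes higher and 5.69% lower. Stat4, which relays IL-12, gave a log2 difference of 0.49 (SE 0.20, adjusted p = 0.368 in limma).

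In TLR against CTRL Zbtb7b rose by 0.25 (SE 0.08) and Gimap4, a GTPase of lymphocytes, fell by 0.41 on the log2 scale (SE 0.16), each at an adjusted p of 1.00 in limma, and none of the 26 NK genes passed, against 2.68% of all genes higher and 0.906% lower. Zbtb7b was thus higher in all 3 cell groups, and these comparisons share their control joints. Without joint 4 of the CTRL group Zbtb7b still passed in all 3 comparisons, with log2 differences of 0.27 in MSC, 0.28 in TLR and 0.23 in STING joints. ThPOK is also made by other cells of the joint, and its cell of origin was not tested. Ltb, Il18rap, Stat4, Lcp2, Cd244a and Cst7 did not pass without that joint, and then 1 of the 40 T cell genes and 0 of the 26 NK genes rose in each of MSC and STING against CTRL, against 4.01% and 4.02% of all genes higher. Between the cell groups, 3 T cell genes (Gimap4, Il2rg and Gimap5) fell in TLR against MSC, Tox fell in STING against MSC and Bcl11b fell in STING against TLR, with none of the 26 NK genes past the threshold. Of all genes, 1.99%, 2.17% and 1.78% were lower in these comparisons.

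The 35 genes mostly rose and fell together from joint to joint. After subtracting group means, 514 of the 595 pairs of genes had a correlation above 0 over the 20 joints, with a median of 0.50. These pairs share libraries and normalization and are given as a description. Klrk1 had the highest median correlation with the other genes, 0.73, and Cd3e and Cd28 had medians below 0, at -0.16 and -0.06. Over the 19 joints without joint 5 of the MSC group the median over pairs was 0.52, that of Cd3e 0.12 and that of Cd28 -0.22. Without this joint and joint 4 of the CTRL group it was 0.41, with -0.19 for Cd3e and 0.04 for Cd28.

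Cd3e was set against 9 single genes. With group means subtracted, its r was 0.22 with Cd8a, -0.08 with Cd4, 0.24 with Foxp3, 0.31 with Gzma, 0.14 with Ncr1, -0.11 with the B cell gene Cd79a, -0.21 with Ptprc and -0.16 with the neutrophil gene S100a8, with adjusted permutation p from 0.767 to 0.778. The rank correlations of these 8 ran from -0.24 to 0.15, with adjusted permutation p from 0.821 to 0.844. With the muscle actin Acta1, Cd3e gave r = 0.64 (permutation p = 0.00452, adjusted 0.0407) and rho = 0.63 (permutation p = 0.00455, adjusted 0.0409) over 20 joints. Without joint 5 of the MSC group and joint 5 of the STING group, the farthest from the median of Cd3e, r with Acta1 was 0.44 and r with Cd8a was 0.59. Without joint 5 of the MSC group alone, r with Acta1 was 0.53 (permutation p = 0.0266, adjusted 0.239), so this r rests in part on that joint. The rho was then 0.62 (permutation p = 0.0114, adjusted 0.103), close to the 0.63 over 20 joints. Neither passed after adjustment.

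Lck, taken after the values were seen as a gene that follows the rest of the list, was set against 8 genes. This choice favours high r with Il2rb and Cd3d, which are on the list, and with genes that vary with the list. The p values of Lck below are therefore given as a description and not as a test. For Il2rb, Cd3d, S100a8 and the synovial and cartilage gene Prg4 the r values were 0.87, 0.70, 0.65 and -0.58, with adjusted permutation p of 0.00048, 0.0066, 0.00981 and 0.0305, and the rho values were 0.80, 0.62, 0.62 and -0.74. Lck rose and fell with Ptprc (r = 0.89, permutation p = 3e-05, adjusted 0.00012; rho = 0.90, permutation p = 3e-05, adjusted 0.00016) and r was 0.86 without joint 4 of the CTRL group and joint 1 of the MSC group, the farthest from its median. Lck also followed Cd79a (r = 0.84, permutation p = 1e-05, the smallest that the permutations can give, adjusted 8e-05; rho = 0.85, permutation p = 4e-05, adjusted 0.00016), and r was 0.83 without the same 2 joints. With Acta1 the relation was inverse (r = -0.68, permutation p = 0.00501, adjusted 0.00802; rho = -0.73, permutation p = 0.00254, adjusted 0.00406), and r was -0.68 without them. With the macrophage gene Csf1r it was -0.20 (permutation p = 0.507, adjusted 0.507; rho = -0.20, permutation p = 0.427, adjusted 0.427). Leaving out joint 5 of the MSC group gave r values of 0.89 with Ptprc, 0.88 with Cd79a and -0.63 with Acta1. The r with Prg4 did not pass without that joint (r = -0.53, permutation p = 0.0786, adjusted 0.0899), while its rho was -0.62 (permutation p = 0.00934, adjusted 0.0149). Shares of tissue and changes within cells cannot be told apart in these libraries.

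**Figure D5:**
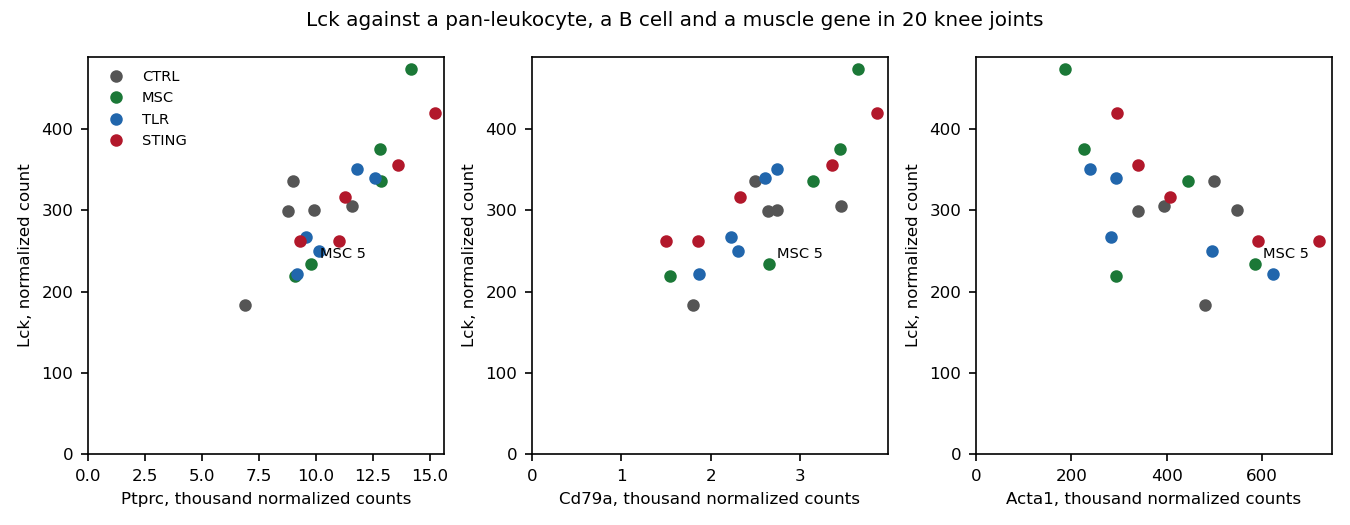
Lck (vertical axis, normalized counts) against Ptprc, Cd79a and Acta1 (horizontal axes, normalized counts scaled as labelled) in the 20 knee joints coloured by group, all axes from 0. Lck rises with Ptprc and Cd79a and falls with Acta1, with joints of all 4 groups mixed along each trend.

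Some marker lists of other leukocytes were low or high in the same joints as the list. Joint 4 of the CTRL group, lowest for 14 of the 35 genes, also had the lowest mean log2 level of the 8 pan-leukocyte genes (12.81, against 13.08 to 13.55 in the other CTRL joints) and of the 10 neutrophil genes (14.27, against 14.57 to 15.19). The 11 B cell genes were at 9.56 in that joint and at 10.08 to 10.39 in the other CTRL joints. The lists of macrophages (12.27, against 11.88 to 12.22), synovial fibroblasts (13.39, against 12.00 to 12.71), chondrocytes (12.75, against 10.25 to 12.59) and endothelial cells (10.95, against 10.09 to 10.62) were instead highest of the CTRL joints in joint 4. Joint 1 of the MSC group, highest for 10 of the 35, had the highest pan-leukocyte level of the 20 joints, 13.84. None of the pan-leukocyte, neutrophil and B cell genes was at 0 in any joint, and their part in the levels of the T and NK cell genes was not tested.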

How the data were processed

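Knee joint tissues of 20 mice (5 per group, from groups of 10) were sequenced as polyA RNA. The authors used STAR (2.7.3a) on GRCm39 and HTSeq with Ensembl release 108 in Partek Flow (10.0), named DESeq2, and deposited the signal used here, median-ratio normalized counts per gene; strand and any low-count filter are not given in the sources used here. The table holds 14793 genes, and 0 value columns were left unmapped. Dividing each library by its smallest step gave whole reads for 99.6% to 99.9% of genes (tolerance 0.1 read), and these recovered reads give the depth.

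The main test was limma (3.58.1, R 4.3.3) with trend on log2(normalized count + 1), all 20 joints in 1 fit, without a block, at an unadjusted p of at most 0.05, with Benjamini-Hochberg adjustment over all genes. It replaces the count test that the paper names, since the values are normalized. Fold changes are on the log2(value + 1) scale, which understates low genes. Exact permutation tests were two-sided; correlations used 100000 permutations within groups. Alternatives were pseudocounts 0.5 and 5, a minimum mean of 20, quantile normalization, edgeR (4.0.16) and DESeq2 (1.42.0) on recovered reads, only the groups compared, a replicate block, and each joint left out. Scripts were tested on simulated data. Exon lengths are from GENCODE on GRCm39, and gene positions are as deposited. Of the list, 25 genes had a RefSeq promoter window; NumPy (2.4.6) and SciPy (1.17.1) were used.

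The genes, lists and tests were chosen with earlier results of these data known. Given in full were Cd3e, Cd4, Cd8a, Foxp3, Gzma, Prf1 and Ncr1, and in each comparison up to 3 genes of smallest p among those with p of at most 0.05; other genes are given by range and count, and genes outside the list only from marker lists. Genes outside this rule are marked as chosen after their values were seen. Relations of Lck and of the CD3 chains, and repeats without joint 5 of the MSC group, were added after seeing the data. Some genes of the marker lists are counted but not reported by name here. Replicates are different mice, with numbers from the labels.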

Additional observations from a re-analysis of the deposited data

Results flagged for a closer look

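Within each group of 5 joints, the highest and the lowest value of each gene were compared with the other 4. The comparison was made on log2(normalized count + 1), while the values below are normalized counts. Dixon's criterion was used, which chance meets in about 1 in 20 groups. Of 140 sets of a gene and a group, 13 met it. Of these, 7 were low values in joint 4 of the CTRL group. They were 40.2 normalized counts for Cd8a (84.6 to 113 in the other CTRL joints), 184 for Lck (299 to 336), 53.9 for Zap70 (112 to 124), 10.0 for Foxp3 (24.3 to 33.3), 103 for Klrk1 (178 to 197), 24.7 for Ncr1 (56.6 to 76.9) and 284 for Il2rb (539 to 608).

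In joint 5 of the MSC group, 2 low values met the criterion, 7.13 for Cd247 (51.9 to 79.8 in the other MSC joints) and 5.09 for Txk (39.6 to 62.3). Joint 3 of the TLR group was low for Cd8b1 at 37.5 (52.8 to 56.5) and for Skap1 at 14.7 (65.6 to 91.1). Joint 3 of the STING group was high for Txk at 65.7 (46.5 to 50.8), and joint 5 of the CTRL group was high for Icos at 59.9 (24.2 to 31.4).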

How the results depend on the processing

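The count of the 35 genes past an unadjusted p of 0.05 was 1 in MSC against CTRL and 0 in the other comparisons and the F-test. It was 2 in MSC against CTRL under quantile normalization, edgeR and DESeq2, 1 in TLR against CTRL under edgeR and DESeq2, 1 in STING against CTRL under quantile normalization, edgeR, DESeq2 and only the groups compared, 1 in STING against TLR with only the groups compared, and 1 across the 4 groups in DESeq2. Leaving out 1 joint at a time gave 1 to 6 genes in MSC against CTRL (6 without joint 5 of the MSC group), 0 to 1 in TLR against CTRL, 0 to 2 in STING against CTRL, 0 to 2 in TLR against MSC, 0 to 1 in STING against MSC, 0 to 1 in STING against TLR and 0 to 1 across the 4 groups. Joints whose removal changed a count were 1, 2, 4 and 5 of CTRL, 1 and 5 of MSC, 2, 3 and 4 of TLR, and 1, 2, 3 and 5 of STING; the cause was not tested. The medians moved by less than the spread between joints in every alternative run, but changed sign in leave-one-out fits, from -0.08 to 0.26 in MSC against CTRL, from -0.14 to 0.12 in TLR against CTRL and from -0.03 to 0.21 in STING against CTRL. Quantile normalization gave 0.22, 0.01 and 0.28.

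Cd28 in MSC against CTRL passed in all 28 alternatives, with log2 differences from -0.68 to -0.45 over the 20 leave-one-out fits. With the replicate block the counts stayed at 1 and 0, and Cd28 was at -0.60 and past the threshold. Same-numbered joints are different mice, and their deviations correlated from -0.66 to 0.46 over the 30 pairs, so the numbers do not pair the joints. Themis, with 0 reads in 1 joint, had the largest SE of the list (0.73 on the log2 scale).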
